A study of Sus scrofa domesticus with 16 samples.

Results

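The genes described here encode subunits of the mitochondrial respiratory chain (complexes I to IV) and of the ATP synthase (complex V), with a few of their assembly factors, in the adrenal gland of the domestic pig. Members were taken from the gene symbols of the array annotation: symbols starting with NDUFA, NDUFB, NDUFC, NDUFS, NDUFV, UQCR, COX4 to COX8 or ATP5, together with SDHA to SDHD and CYC1. For a gene with several probe sets (groups of short probes against one transcript) the probe set with the highest mean log2 signal over the 16 arrays was used. The choice gave 63 genes of the 6765 that carry a single symbol, namely 36 for complex I, 4 for complex II, 2 for complex III, 7 for complex IV and 14 for complex V. Of these, 62 passed the filter on dim probe sets, and COX8H, a subunit of complex IV, did not. By role, 59 of the 63 are subunits, and NDUFAF1, NDUFAF2, NDUFAF3 and ATP5S are not. CYC1, UQCRC1, UQCRC2, UQCRFS1, COX4I1, COX5A and the subunits encoded by mitochondrial DNA were not analysed here.

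Adrenal glands of 16 pigs were compared, 8 from a mixing treatment of high aggressiveness (high stress) and 8 from one of low aggressiveness (low stress), with 1 Affymetrix Porcine Genome array per animal. Unfamiliar pigs that differed in aggressiveness had been mixed, and the design text states that the groups chosen differed in aggressive behaviour and in plasma cortisol. The comparison asks which adrenal transcripts differ between the stress levels. The labels give no sex, age, breed, sampling time or adrenal zone, and total RNA of the gland was labelled without separating cell types.

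Oxidative phosphorylation takes place in the inner mitochondrial membrane. Complexes I and II pass electrons from NADH and succinate to coenzyme Q, complex III passes them on to cytochrome c, and complex IV, cytochrome c oxidase, hands them to oxygen. Complexes I, III and IV pump protons across the membrane, and the ATP synthase lets them flow back through its c ring to make ATP. Adrenal cortical cells are rich in mitochondria, since the first and the last steps of cortisol synthesis take place inside them, and those steps draw electrons from NADPH through their own carriers.

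Signals are deposited MAS5 intensities, given below as log2, and a difference is the mean log2 signal of high stress minus that of low stress. Array medians, taken before dim probe sets were left out, lay between 116 and 148 on the linear scale after each array had been scaled to a trimmed mean of 500. Cortical and medullary transcripts were bright in all animals: the steroid transport protein STAR had a mean log2 signal of 14.86 ± 0.17 (SD, n = 8) in low stress and 14.83 ± 0.16 in high stress, and PNMT, the enzyme that makes adrenaline, had 13.58 ± 0.36 and 13.62 ± 0.42. The arrays fell into 2 sets of 8, each with 4 animals of either stress level, by the signal of the dap spike-in control, which differed 7.78-fold. The labels do not mention these sets. They are called low-spike and high-spike here, and results are also given within them.

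No member was called as different between the stress groups. Unless a block is named, fits and intervals hold the stress group only, and their spread includes the difference between the sets. With limma (two-sided, Benjamini-Hochberg adjustment over all 14399 probe sets tested), 0 of 62 members and 0 of 14399 probe sets (0%) had an adjusted p under 0.05, and the smallest adjusted p of a member was 0.999. At an unadjusted p under 0.05, 0 members were called, against 460 probe sets (3.19%), of which 183 were higher (1.27%) and 277 lower (1.92%), and the smallest unadjusted p of a member was 0.0722. The groups overlapped for each of the 62 members, and 3 of all probe sets tested (0.0208%) had groups that did not overlap. With the set of arrays as a block in the limma fit, 1 probe set of 14399 (0.00694%), not a member, and 0 members passed at the adjusted threshold. At an unadjusted p under 0.05 the same fit gave 5 members, all higher in high stress, where 919 probe sets (6.38%) were called, 341 of them higher (2.37%) and 578 lower (4.01%). The 5 were NDUFB2, NDUFB1, NDUFB11 and NDUFA7 of complex I and ATP5G1 of the ATP synthase, and the smallest adjusted p among members in that fit was 0.682.

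Most member means lay slightly higher in high stress. As deposited, 57 of the 62 had a higher mean in high stress, where 41.6% of all probe sets tested did, and after quantile normalization the count was 44, against 49.6%. The median difference of the members was 0.07 (1.05-fold), with a range from -0.15 to 0.60, beside -0.03 over all probe sets tested. After quantile normalization these medians were 0.04 and -0.00, and after median centring they were 0.11 and 0.01. The 5 members with a lower mean were NDUFS1, COX7C, COX7A1, ATP5J and ATP5S. In bulk tissue, fewer cells of a type and less RNA per cell cannot be told apart, so a level below is that of the gland as a whole. Leaving out single animals moved the count of higher members between 47 (without high stress replicate 4) and 58 (without high stress replicate 5). The median difference moved between 0.04 (without low stress replicate 3) and 0.11 (without high stress replicate 3). All members were measured in the same animals, so their differences are not independent of each other. Leaving out a single animal could change the sign of several members at once. The median set differences of complexes I to V, given below, also shared a sign. Counts of higher members, here and below, are therefore not counts of separate observations.

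**Figure D1:**
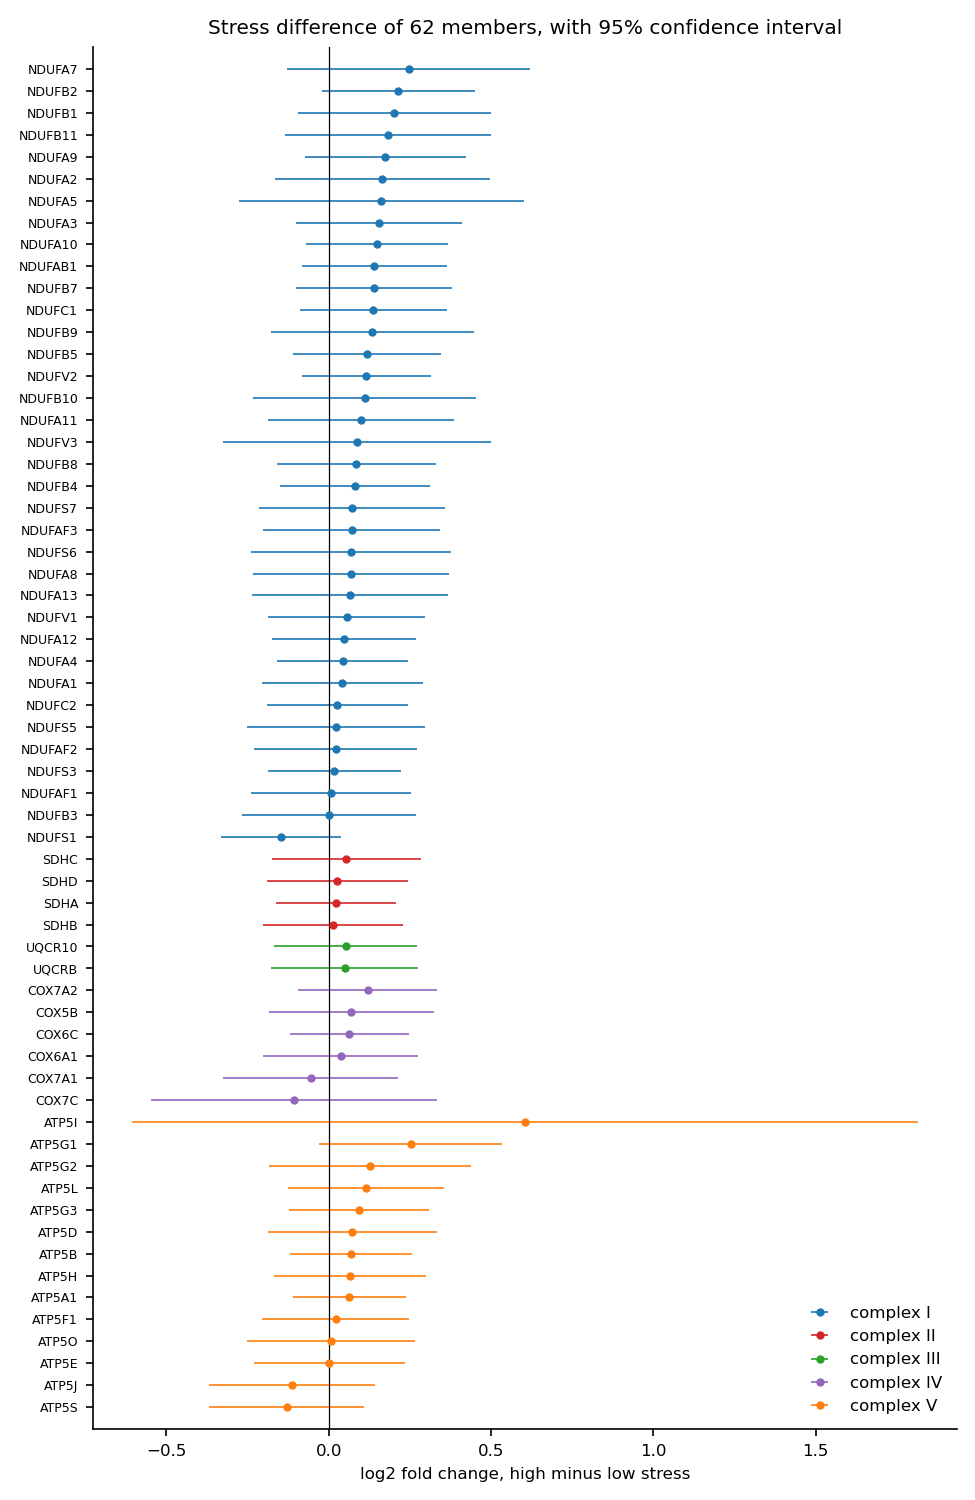
Difference in mean log2 signal, high minus low stress, of the 62 tested members, each with its 95% confidence interval from limma (8 animals a group) and coloured by complex. The fit holds the stress group only, so the intervals carry the difference between the sets of arrays. All 62 intervals include 0, most points lie between 0 and 0.2, and the interval of ATP5I, from -0.61 to 1.81, is the widest. With the set as a block, the unadjusted intervals of 5 members exclude 0.

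In complex I, 35 of 36 tested members had a higher mean in high stress as deposited and 29 did after quantile normalization, with medians of 0.09 and 0.07. Members go by symbol, so the 36 include NDUFA4 and the assembly factors NDUFAF1, NDUFAF2 and NDUFAF3. Without the assembly factors, 32 had a higher mean as deposited, with a median of 0.10. The mean over the 36 members was 11.81 ± 0.16 (SD, n = 8) in low stress, with a range over animals of 11.63 to 12.03. In high stress it was 11.90 ± 0.18, with a range of 11.62 to 12.08. The ranges of both groups overlapped over nearly their whole width. None of the members passed the test.

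The matrix arm of complex I carries the flavin and the iron-sulfur clusters that take electrons from NADH. Of its 12 tested members, 11 had a higher mean in high stress (9 after quantile normalization and 9 within the high-spike set), with a median of 0.08. NDUFS1, the largest iron-sulfur subunit of the arm, was the exception. In low stress its lowest, median and highest log2 signals were 10.84, 11.11 and 11.23, and in high stress they were 10.71, 10.94 and 11.17. Only 1 of 8 animals in high stress exceeded the low stress mean, and a single low stress animal lay among the lowest values. The difference was -0.15 (95% confidence interval -0.33 to 0.04, unadjusted p = 0.111 and adjusted p = 0.999 by limma), and it was negative within both sets, at -0.09 and -0.20.

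NDUFA9, which helps to join the matrix arm to the membrane, had the opposite sign. Its lowest, median and highest values were 11.24, 11.63 and 11.91 in low stress and 11.42, 11.73 and 12.08 in high stress. The difference was 0.17 (95% confidence interval -0.07 to 0.42), and 6 of 8 animals in high stress exceeded the low stress mean. NDUFV1, which binds NADH and the flavin, showed a smaller difference of 0.06 (95% confidence interval -0.19 to 0.30), at 0.14 in the low-spike and -0.03 in the high-spike set. NDUFS3, a core subunit near the coenzyme Q site, differed by 0.02 as deposited and by -0.02 after quantile normalization. Both differences are small beside the SDs of 0.14 and 0.18 within the groups. Another 3 matrix arm members were picked after their values were seen. NDUFA7 differed by 0.25 (95% confidence interval -0.13 to 0.62, or 0.0035 to 0.49 with the set as a block). NDUFA5 differed by 0.16 and NDUFV3 by 0.09, both with SDs over 0.39 in each group, wider than those of the named members of the arm.

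The membrane arm holds the proton pump and many accessory subunits around it. All 20 of its tested members had a higher mean in high stress as deposited, with a median of 0.11, although NDUFA1, NDUFB3, NDUFC2 and NDUFS5 changed sign after quantile normalization and 17 of the 20 were higher within the high-spike set. NDUFB2, a small accessory subunit, had the smallest unadjusted p of the 62 members. Its lowest, median and highest values were 12.59, 12.88 and 13.16 in low stress and 12.77, 13.12 and 13.38 in high stress. The high stress animals were shifted upwards as a group, with 7 of 8 above the low stress mean, but most of both ranges overlapped. The difference was 0.21 (1.16-fold, 95% confidence interval -0.02 to 0.45, unadjusted p = 0.0722 and adjusted p = 0.999 by limma). It was 0.22 in the low-spike and 0.21 in the high-spike set, and leaving out single animals moved it between 0.17 and 0.26. With the set as a block the interval of NDUFB2 was 0.03 to 0.40 (unadjusted p = 0.0226, adjusted p = 0.74 by limma).

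NDUFB1 and NDUFB11, chosen after their values were seen, are accessory subunits of the same arm, with differences of 0.20 (95% confidence interval -0.09 to 0.50) and 0.18 (-0.13 to 0.50). With the set as a block these intervals were 0.01 to 0.39 and 0.005 to 0.36. NDUFA1, a small subunit at the junction of the arms, differed by 0.04 as deposited and -0.02 after quantile normalization. NDUFB3, also picked after its value was seen, had the value nearest 0 of the arm, at 0.00 (95% confidence interval -0.27 to 0.27), and it too changed sign after quantile normalization. The members of the arm thus spanned 0.00 to 0.21, a spread smaller than the width of any single interval. NDUFA4, named as a complex I gene and now known as a subunit of complex IV, differed by 0.04 (95% confidence interval -0.16 to 0.24). The assembly factors NDUFAF1, NDUFAF2 and NDUFAF3, which help to build complex I and are no part of it, differed by 0.01, 0.02 and 0.07.

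**Figure D2:**
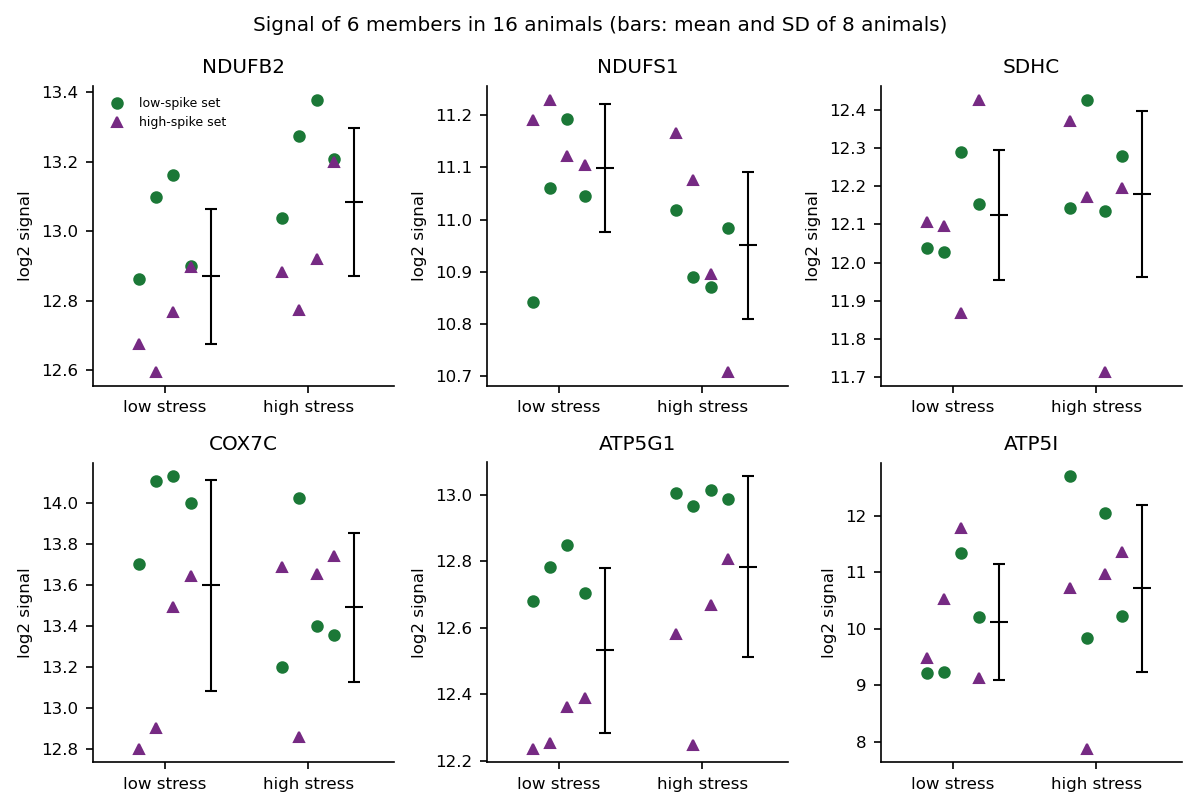
Log2 signal of NDUFB2, NDUFS1, SDHC, COX7C, ATP5G1 and ATP5I in each of the 16 animals, low stress on the left of each panel and high stress on the right; circles are the low-spike and triangles the high-spike set, and bars give the mean and SD of 8 animals. The groups overlap in all 6 panels, each panel has its own vertical scale, and ATP5I spans 4.83 log2 units where NDUFB2 spans 0.79.

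Complex II, succinate dehydrogenase, links the citric acid cycle to the chain and was represented by all 4 of its subunits. Each had a slightly higher mean in high stress as deposited, but a single one, SDHC, kept that sign after quantile normalization. The mean over the 4 was 12.88 ± 0.12 (SD, n = 8) in low stress and 12.91 ± 0.15 in high stress. SDHA, the flavoprotein that oxidises succinate, had lowest, median and highest values of 12.74, 12.97 and 13.15 in low stress and 12.79, 12.995 and 13.16 in high stress. Both groups covered the same range. The difference was 0.02 as deposited (95% confidence interval -0.16 to 0.21) and -0.04 after quantile normalization.

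SDHB, the iron-sulfur subunit, differed by 0.01 (95% confidence interval -0.20 to 0.23) as deposited and by -0.01 after quantile normalization. SDHC and SDHD anchor the enzyme in the membrane. For SDHC the lowest, median and highest values were 11.87, 12.10 and 12.43 in low stress and 11.71, 12.18 and 12.43 in high stress. One high stress animal, replicate 5, lay well below the other 7, which ranged from 12.13 to 12.43. The difference of SDHC was 0.05 (95% confidence interval -0.18 to 0.28). That of SDHD was 0.03 (-0.19 to 0.24) as deposited and -0.03 after quantile normalization. Within the sets the median of the 4 was 0.09 in the low-spike and -0.02 in the high-spike set. The count of 4 was 2 without low stress replicate 3, 2 without high stress replicate 4 and 1 without high stress replicate 6.

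Complex III was represented by accessory subunits only. UQCRB, which lies at the matrix side of the coenzyme Q site, had lowest, median and highest values of 12.44, 12.64 and 12.86 in low stress and 12.35, 12.69 and 12.98 in high stress. UQCR10, a small membrane subunit, had 13.08, 13.47 and 13.58 in low stress and 13.15, 13.51 and 13.68 in high stress. High stress animals held both the highest and, for UQCRB, the lowest value. The differences were 0.05 (95% confidence interval -0.18 to 0.28) for UQCRB, which was -0.00 after quantile normalization, and 0.05 (-0.17 to 0.27) for UQCR10, which was 0.01. UQCR10 was at 0.16 within the low-spike and -0.06 within the high-spike set.

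In complex IV, 4 of 6 tested members had a higher mean in high stress, as deposited and after quantile normalization, and the median was 0.05 and 0.02. As deposited the median was 0.01 without low stress replicate 3 and 0.09 without high stress replicate 5. The mean over the 6 was 13.47 ± 0.22 (SD, n = 8) in low stress and 13.49 ± 0.19 in high stress. COX7A2, the form of subunit 7A found in most tissues, had lowest, median and highest values of 13.19, 13.38 and 13.62 in low stress and 13.17, 13.54 and 13.74 in high stress. Its difference was 0.12 (95% confidence interval -0.09 to 0.33), and 6 of 8 animals in high stress exceeded the low stress mean. COX7A1, the form of the same subunit typical of heart and skeletal muscle, differed by -0.06 (95% confidence interval -0.33 to 0.21), from -0.12 without high stress replicate 4 to 0.01 without high stress replicate 5. The signs of these related genes were opposite, and the difference between them was not tested.

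COX5B, a nuclear-encoded subunit facing the matrix, differed by 0.07 (95% confidence interval -0.19 to 0.32). COX6C, a small membrane subunit, differed by 0.06 (-0.12 to 0.25), and COX6A1, the form of subunit 6A found outside muscle, by 0.04 (-0.20 to 0.28). All 3 had overlapping groups whose SDs were larger than the difference. COX7C, another small membrane subunit, chosen after its values were seen, varied more. Its lowest, median and highest values were 12.80, 13.67 and 14.13 in low stress and 12.86, 13.53 and 14.02 in high stress, with a difference of -0.11 (95% confidence interval -0.55 to 0.33). The difference was -0.49 in the low-spike and 0.28 in the high-spike set. These differ by the limma interaction term with an unadjusted p of 0.0385 and an adjusted p of 1. Of the 62 members COX7C alone was called for that term without adjustment, where 421 probe sets (2.92%) were called, and 0 members and 0 probe sets (0%) passed after adjustment.

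COX8H, the heart form of subunit 8 by its symbol, was dim. Its mean log2 signal of 5.995 lay below the filter at 6.15. The lowest, median and highest values were 3.26, 5.97 and 7.73 in low stress and 3.73, 6.65 and 7.13 in high stress. Both groups spanned over 3 log2 units, and no test was made.

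**Figure D3:**
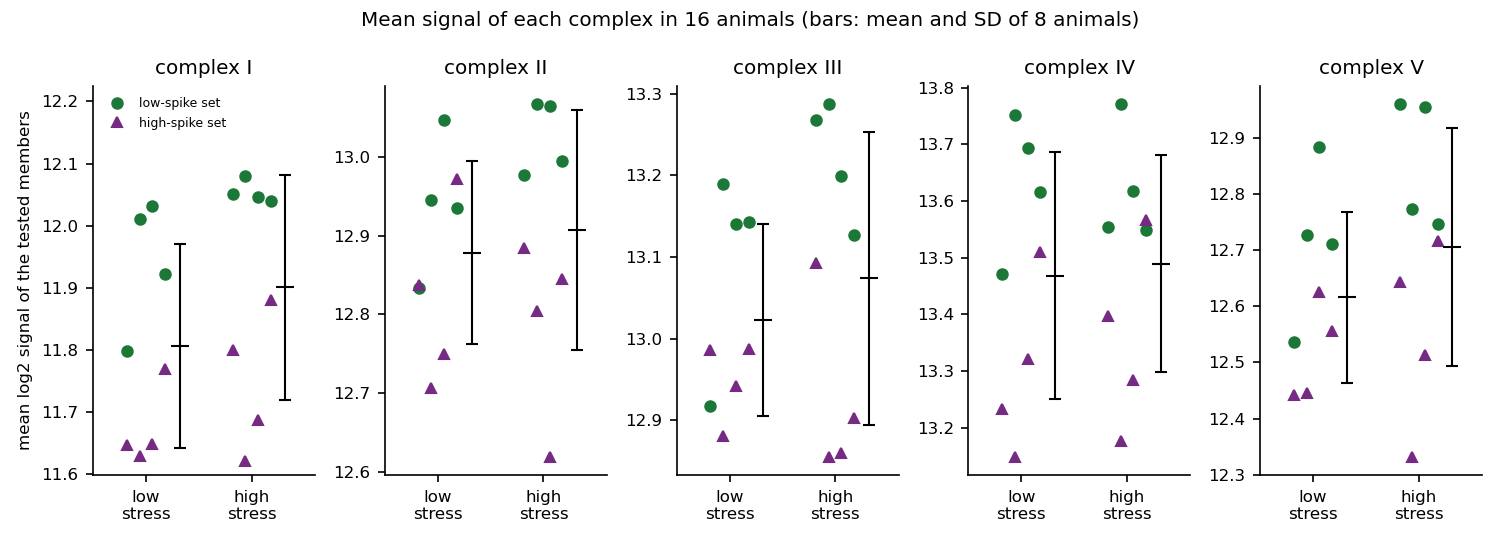
Mean log2 signal over the tested members of each complex in each of the 16 animals, by stress level; circles are the low-spike and triangles the high-spike set, bars give the mean and SD of 8 animals, and each panel has its own vertical scale. In all 5 complexes the stress groups overlap, and in complex I every low-spike animal lies at 11.80 or above while the high-spike animals reach down to 11.62. The mean of complex V includes ATP5I, the member with the largest spread.

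In the ATP synthase, 12 of 14 tested members had a higher mean in high stress as deposited and 9 did after quantile normalization, with medians of 0.07 and 0.05. The mean over the members was 12.62 ± 0.15 (SD, n = 8) in low stress and 12.71 ± 0.21 in high stress. The catalytic head is made of ATP5A1 and ATP5B, the alpha and beta subunits. ATP5A1 had lowest, median and highest values of 13.78, 14.00 and 14.17 in low stress and 13.89, 14.04 and 14.23 in high stress. ATP5B had 13.88, 14.07 and 14.19 in low stress and 13.92, 14.12 and 14.36 in high stress. Both were among the steadiest members, and their differences were 0.06 (95% confidence interval -0.11 to 0.24) and 0.07 (-0.12 to 0.26).

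The c ring, the rotor through which protons pass, is encoded by ATP5G1, ATP5G2 and ATP5G3, which make the same mature protein with different import signals. All 3 had a higher mean in high stress as deposited, after quantile normalization and within both sets. ATP5G1 had lowest, median and highest values of 12.24, 12.53 and 12.85 in low stress and 12.25, 12.89 and 13.01 in high stress. In high stress 7 of 8 animals exceeded the low stress mean, and the lowest high stress animal lay beside the lowest of the low stress group. The difference was 0.25 (1.19-fold, 95% confidence interval -0.03 to 0.53, unadjusted p = 0.0756 and adjusted p = 0.999 by limma). With the set as a block the interval was 0.09 to 0.42 (unadjusted p = 0.00548, adjusted p = 0.682). Within the low-spike set the 4 low stress animals ranged from 12.68 to 12.85 and the 4 high stress animals from 12.97 to 13.01, without overlap. Within the high-spike set the ranges were 12.24 to 12.39 and 12.25 to 12.81, and they overlapped. ATP5G2 differed by 0.13 (95% confidence interval -0.18 to 0.44) and ATP5G3 by 0.09 (-0.12 to 0.31).

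ATP5D and ATP5E, the delta and epsilon subunits of the central stalk, chosen after their values were seen, differed by 0.07 and 0.00, and ATP5E changed sign after quantile normalization. The other tested subunits form the peripheral stalk and its membrane base. ATP5L, the g subunit of the membrane part, differed by 0.11 (95% confidence interval -0.13 to 0.35). Its other tested probe sets, both dimmer, had the opposite sign, at -0.109 and -0.106. ATP5I, the e subunit, which takes part in pairing ATP synthases, had the largest difference of the 62 members and also the largest spread. Its lowest, median and highest values were 9.13, 9.84 and 11.78 in low stress and 7.87, 10.84 and 12.70 in high stress. The highest and the lowest of all 16 animals were both in the high stress group. The difference was 0.60 (95% confidence interval -0.61 to 1.81), at 1.21 in the low-spike and -0.00 in the high-spike set. It was 0.32 without high stress replicate 1 and 1.01 without high stress replicate 3. The SD of ATP5I over the 16 animals was 1.27, where the median member had 0.21 and the next had 0.43, and 53 of the 14399 probe sets (0.368%) had a larger one. The other probe set of the gene was too dim to test.

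ATP5S, a coupling factor that is no subunit of the enzyme, had lowest, median and highest values of 8.73, 9.05 and 9.26 in low stress and 8.54, 8.91 and 9.23 in high stress. Its difference was -0.13 (95% confidence interval -0.37 to 0.11). ATP5J, coupling factor 6 of the peripheral stalk, chosen after its value was seen, differed by -0.11 (-0.37 to 0.14). Without the assembly factors and ATP5S, 54 of 58 tested subunits had a higher mean in high stress, with a median of 0.07.

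Members differed far more between the sets of arrays than between the stress groups. In the limma fit with stress and set, 44 of 62 members had an adjusted p under 0.05 between the sets, where 5767 probe sets (40.1%) did. Of the 44, 42 were lower in the high-spike set and 2 higher, where 2353 probe sets (16.3%) were called lower and 3414 (23.7%) higher. The median difference of the members, high-spike minus low-spike, was -0.30 beside -0.02 over all probe sets tested. By complex the medians were -0.32 for I, -0.18 for II, -0.22 for III, -0.31 for IV and -0.31 for V.

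The largest set differences, picked here for their size, were those of NDUFA7 (-0.56), NDUFB10 (-0.52) and NDUFB11 (-0.51), all of complex I. NDUFA5 and ATP5J were the members called higher in the high-spike set, by 0.50 (adjusted p = 0.0273, limma) and 0.30 (adjusted p = 0.0193). The count and its split moved with the scaling: after quantile normalization 24 members were lower and 2 higher, and after median centring 52 were lower and 0 higher. The median of all probe sets moved to -0.08 and -0.14 under these scalings, and that of the members to -0.15 and -0.43, so the members lay below the whole in each.

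RNA measures moved with the sets as well. The log2 ratio of the 3' to the 5' actin control was 3.77 ± 0.35 (SD, n = 8) in the low-spike and 2.76 ± 0.25 in the high-spike set. The same ratio for the GAPDH control went the other way, at 0.47 ± 0.07 in the low-spike and 0.60 ± 0.10 in the high-spike set. The array median of the tested probe sets, in log2, was 8.58 ± 0.05 in the low-spike and 8.70 ± 0.04 in the high-spike set. Their part in the set differences of the members was not tested. Between the stress groups the actin ratio was 3.38 ± 0.60 in low and 3.15 ± 0.62 in high stress. With it as a covariate beside the set 56 of 62 members had a higher mean in high stress. The part of RNA quality in the stress differences was not tested.

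The stress difference was read again within each set, 4 animals against 4. In the low-spike set 54 of 62 members had a higher mean in high stress (44.4% of all probe sets tested), with a median of 0.11. In the high-spike set 42 did (43.7%), with a median of 0.03. Higher in both sets were 38 members (22.8% of all probe sets), and 4 were lower in both. Medians by complex were 0.12, 0.09, 0.12, 0.09 and 0.10 for complexes I to V in the low-spike set and 0.06, -0.02, -0.02, 0.03 and 0.01 in the high-spike set.

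The mean over the complex I members separated the stress groups in the low-spike set by a small margin, at 11.80 to 12.03 in low stress and 12.04 to 12.08 in high stress. In the high-spike set it ran from 11.63 to 11.77 in low stress and from 11.62 to 11.88 in high stress, with overlap. Complex I is named here for its separation in the low-spike set, where the means of complexes II to V overlapped. The mean over all 62 members overlapped there too, at 12.23 to 12.49 in low stress and 12.44 to 12.51 in high stress. Singly, 9 members had all high stress animals above all low stress animals in the low-spike set (1.81% of all probe sets tested), and 0 did in the high-spike set (0.625%). These 9, found by this count, were ATP5G1, ATP5L, NDUFA3, NDUFAB1, NDUFB1, NDUFB11, NDUFB5, NDUFB7 and NDUFC1. In the other direction ATP5S was the single member in the low-spike set (2.72% of all probe sets) and 0 members were found in the high-spike set (1.08%). After adjustment, 0 members had a stress difference that differed between the sets, so a difference between the sets in these counts was not shown.

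Animal numbers in the labels start with one of 4 digits, and each digit held 1 low and 1 high stress animal in each set, which gives 8 pairs. The labels do not say what the digit marks. This comparison was added after the data were seen. With the means of stress and set removed, the correlation within pairs ran from -0.11 to 0.24 over 14399 probe sets. These correlations cannot settle whether the digit pairs the animals, since a pairing that touches few probe sets could leave them small. The counts below describe a matching whose basis the labels do not give. NDUFB2 was higher in the high stress animal in 8 of 8 pairs, by 0.15 to 0.31, and so were NDUFA7, NDUFA9 and NDUFA10, found by this count, where 0.771% of all probe sets tested were higher in each pair. Lower in each pair were 0 members (0.945% of all probe sets). ATP5G1 was higher in 7 of 8 pairs and NDUFS1 in 1 of 8. With the pair as a block in limma, 0 members and 0 probe sets (0%) passed after adjustment, and the smallest adjusted p of a member was 0.462. At an unadjusted p under 0.05, 7 members were called, all higher in high stress (2.97% of all probe sets), and 0 lower (6.2%). To the 5 members called with the set as a block this fit added NDUFA9 and NDUFA10.

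**Figure D4:**
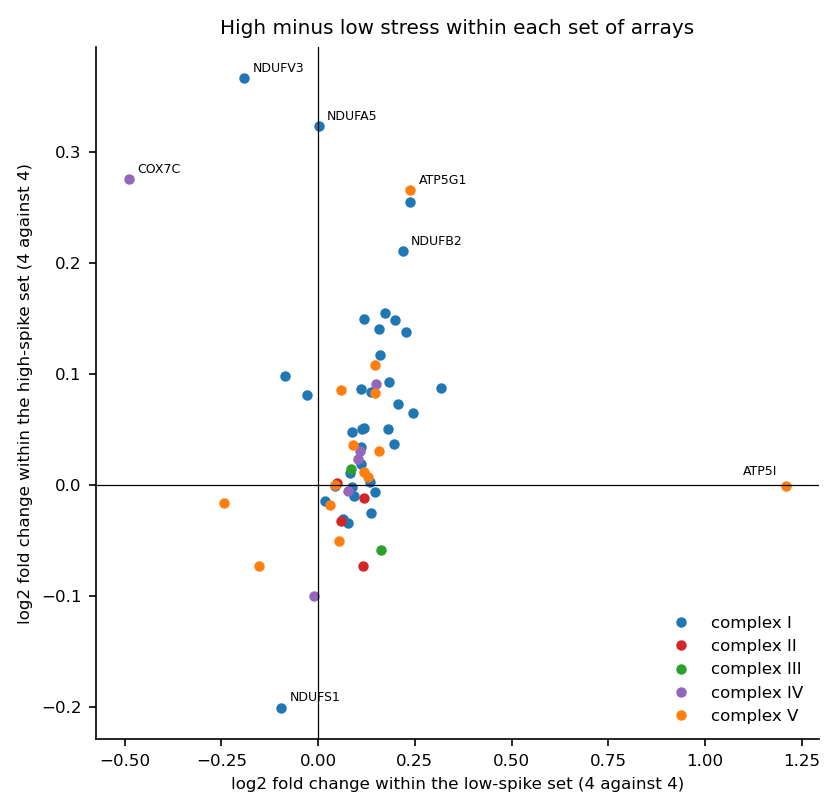
Difference in mean log2 signal, high minus low stress, of the 62 tested members in the low-spike set on the horizontal axis and the high-spike set on the vertical axis (4 animals against 4 in each), coloured by complex. ATP5G1 and NDUFB2 are above 0.2 on both axes, NDUFS1 is below 0 on both, COX7C is at -0.49 and 0.28, and ATP5I lies far to the right at 1.21 with a value near 0 on the vertical axis.

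Members are bright on this array, and the sign of the stress difference moved with brightness over all probe sets. Of those whose mean log2 signal was under 10, 37.5% had a higher mean in high stress, among those from 10 to 12 51.9%, from 12 to 13 65.5%, and at 13 or over 56.5%. Members numbered 5, 13, 21 and 23 in these ranges, and 4, 11, 20 and 22 of them had a higher mean. After quantile normalization the shares over all probe sets were 49.6%, 48.9%, 49.4% and 52%, and the members' counts were 4, 10, 14 and 16. Within each range the share of members with a higher mean was above that of all probe sets under both scalings; no test was made of this.

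**Figure D5:**
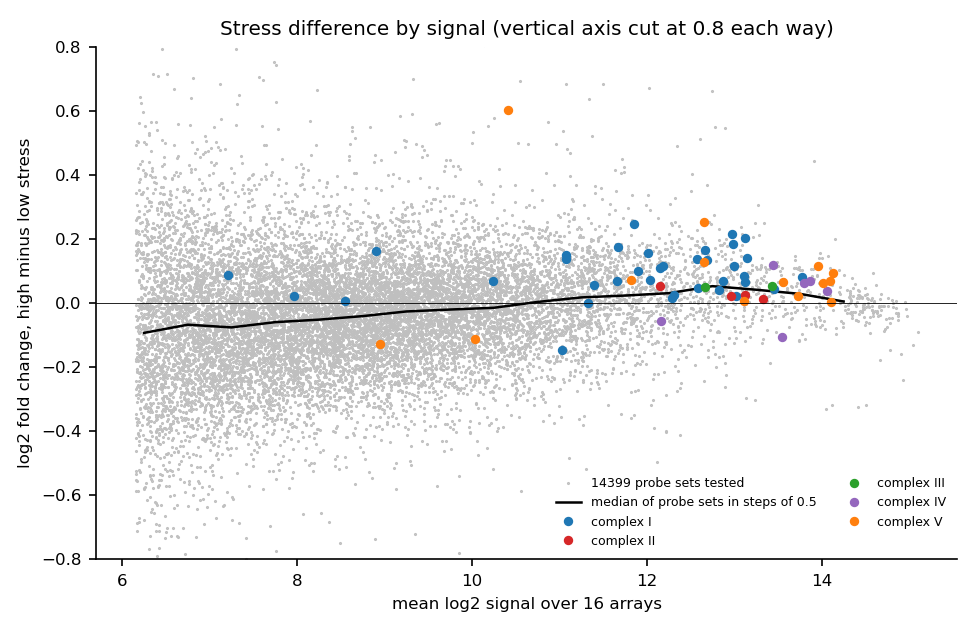
Difference in mean log2 signal, high minus low stress, against the mean log2 signal over 16 arrays for 14399 tested probe sets (grey) and the 62 members (coloured by complex); the black line joins medians of all probe sets in steps of 0.5, and 33 probe sets lie outside the vertical limits of 0.8. The line is below 0 for dim probe sets and above 0 from about 11 to 14, and 44 of the 62 members have a mean of 12 or more.

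Probe sets of one gene did not always tell the same story. Several probe sets were tested for 9 members, and for 6 of them (ATP5L, NDUFA1, NDUFAF1, NDUFS3, SDHA and SDHB) the sign of the stress difference differed between probe sets, none of which passed the test. The second probe set of NDUFA1 differed by -0.37 where the first differed by 0.04, and that of NDUFAF1 by -0.22 where the first differed by 0.01. Between the sets of arrays the contrast was larger. The second probe set of SDHA was higher in the high-spike set by 0.88 (adjusted p = 8.47e-06, limma) and that of SDHB by 0.73 (adjusted p = 0.00319), where the brightest ones differed by -0.10 (adjusted p = 0.333) and -0.25 (adjusted p = 0.0146). For 6 of the 9 members the sign of the set difference differed between probe sets. The other 54 members had at most 1 tested probe set.

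Related mitochondrial genes from listed pathways showed no call after adjustment (0 of the tested genes in each list). Their counts are as deposited, where 41.6% of all probe sets tested had a higher mean in high stress. That share was 37.5%, 51.9%, 65.5% and 56.5% in the ranges of brightness given above, from dim to bright. Of 15 tested assembly factors of the chain, 3 of them members, 12 had a higher mean in high stress, with a median of 0.06. ECSIT, an assembly factor of complex I, differed by 0.25 (unadjusted p = 0.0479, adjusted p = 0.999, limma), and ATPAF1, which assembles the ATP synthase head, by -0.16. Among 9 genes for electron carriers and coenzyme Q synthesis 4 were higher and 5 lower, with a median of -0.02, and GPD2, which feeds electrons from glycerol phosphate into the chain, differed by -0.31. Of 16 citric acid cycle and pyruvate dehydrogenase genes 12 were higher, with a median of 0.04 and 0.18 for PDHA1, a subunit of pyruvate dehydrogenase. Of 9 carriers and porins 8 were higher, with a median of 0.10, among them the ADP/ATP carriers SLC25A4 at 0.14 and SLC25A5 at 0.18.

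Markers of the cell types of the gland were set beside these values. For chromaffin cells, 10 of 12 measured markers were tested (PCSK2 and NPY were below the filter). Their mean log2 signal ranged from 10.87 to 11.61 in low stress and from 10.79 to 11.69 in high stress. With it as a covariate 55 of 62 members had a higher mean in high stress. The group means of these markers were 11.22 and 11.24, which left little group difference to adjust for. The part of chromaffin cells in the values of the members was not tested. All 5 tested of 6 measured smooth muscle markers (MYLK was below the filter) had a higher mean in high stress, with a median of 0.33, and their mean ranged from 8.83 to 10.42 in low stress and from 9.47 to 10.49 in high stress. TAGLN, a smooth muscle protein, differed by 0.50 (unadjusted p = 0.0222, adjusted p = 0.999, limma). Its part in the values of the members was not tested. The median differences of the other lists were -0.06 for endothelial cells (7 genes), -0.03 for fibroblasts (5), -0.05 for myeloid cells (7), 0.01 for the zona glomerulosa (3), -0.03 for skeletal muscle (2), 0.02 for T and B cells (2), -0.07 for adipocytes (3) and 0.06 for blood cells (3).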

How the data were processed

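The values are linear intensity signals deposited by the authors, made with Affymetrix Expression Console 1.1.1 and MAS5, per the submitters' processing notes (no MAS5 version given in the sources used here). Each array had a mean of 500 without the top and bottom 2% of probe sets. Values were taken to log2. Of 23999 probe sets (124 controls set aside), 10069 had 1 gene symbol, 198 several and 13732 none; 4 with several symbols that included a member's prefix were set aside. Probe sets with a mean log2 under the 40th percentile (6.15, a signal of 71.1) were left out, and 14399 were kept, for 5455 named genes.

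Stress groups were tested in R 4.3.3 with the limma package, version 3.58.1 (lmFit, then eBayes, two-sided). Spike-in sets were split at the widest gap in the dap control. The alternatives were the set as a block, each set alone, median centring, quantile normalization, other filters (none, 60th percentile), a pseudocount of 23.5, an intensity trend with a robust prior, a block on the leading digit of the animals' numbers, actin and chromaffin covariates, averaged probe sets per gene and leaving out each animal. Leaving out the assembly factors and ATP5S, joining quantile normalization with the block, and blocking on the leading digit and the set together, were added after the data were seen. The scripts were tested on simulated data. Members and lists were chosen with earlier results of these data known. Named members are the 3 with the smallest p in a complex (all where it has at most 4), a fixed list of core and tissue-form subunits, and those whose probe sets differ in sign; outside the members, at most 2 genes of a list. The number of arrays limits the precision. Figures were drawn with matplotlib 3.10.9.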

Additional observations from a re-analysis of the deposited data

Results flagged for a closer look

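The SDHC signal of high stress replicate 5 stood apart from the rest of its group. It was 11.71 on the log2 scale, where the other 7 high stress animals ranged from 12.13 to 12.43. The gap took up 0.59 of the range of the group. This animal belongs to the high-spike set. Among the 64 groups of 8 values examined this way it was the only such case, and chance gives about 1 in 20 such groups.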

How the results depend on the processing

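Calls among the members stayed at 0 under each alternative run. Probe sets called were 0, or 1 with the set as a block (by itself, with the actin ratio, or after quantile normalization). Members with a higher mean in high stress numbered 42 (high-spike set alone) to 58 (no filter), and blocking on the leading digit of the animals' numbers changed no call. Complex II members with a higher mean numbered 1 of 4 and complex III members 1 of 2 within the high-spike set and after quantile normalization, with and without the block; leaving out single animals gave 1 to 4 for complex II. Members differing between the sets numbered 26 after quantile normalization. Of 27 named members, these reversed. Averaging a gene's probe sets gave NDUFA1 -0.17, NDUFAF1 -0.11, NDUFS3 -0.052, SDHB -0.04 and ATP5L -0.034. Quantile normalization gave SDHA -0.038, SDHD -0.033, NDUFS3 -0.021, NDUFA1 -0.019, SDHB -0.013 and UQCRB -0.0006. The high-spike set alone gave SDHA -0.073, UQCR10 -0.058, SDHB -0.032, NDUFS3 -0.030, NDUFV1 -0.026, SDHC -0.011, NDUFA1 -0.010, COX6A1 -0.0049, NDUFA4 -0.0015 and ATP5I -0.0005, and the low-spike set alone gave NDUFAF1 -0.085. Leaving out single animals moved COX6A1 from -0.0096 to 0.088, COX7A1 from -0.12 to 0.0054, NDUFAF1 from -0.061 to 0.072, NDUFS3 from -0.011 to 0.065, SDHA from -0.0073 to 0.051, SDHB from -0.030 to 0.054 and SDHD from -0.0035 to 0.064. The cause was not tested. The labels give no replicate numbers, and pairing animals by leading digit and set (8 pairs) kept 0 calls. After the means of stress and set were removed, the correlation within pairs over 14399 probe sets ran from -0.11 to 0.24. It was over 0.1 in 2 of 8 pairs, which does not settle whether the digit pairs the animals. Signals of a dim probe set such as COX8H are bounded by background.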

Other observations

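Of 58 tested mitochondrial ribosomal protein genes, which serve to translate the chain subunits encoded in mitochondria, 42 had a higher mean in high stress, with a median difference of 0.05 on the log2 scale. As deposited, 41.6% of all probe sets tested had a higher mean, and 51.9% of those with a mean log2 signal from 10 to 12. MRPL28 and MRPS28 differed by 0.22 and 0.23 (unadjusted p = 0.0642 and 0.069, adjusted p = 0.999, limma). Among 5 regulators of mitochondrial gene expression 3 were higher, with PPRC1, a coactivator related to PGC-1, at 0.26 and TFB1M, a methyltransferase of mitochondrial ribosomal RNA, at 0.22. The 6 tested genes listed for mitochondrial steroid synthesis were split, with 3 higher and 3 lower and a median of 0.01. FDXR, which passes electrons from NADPH to the steroid-forming cytochromes, differed by 0.11, and HSD3B1, which forms progesterone, by -0.09. None of these genes passed after adjustment.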
